A study of Homo sapiens with 4 samples.

Results

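Untreated U937 cells were described here from 1 array of the 4 in the series. They were chosen by their treatment label, non-treatment control, and no difference between treatments was taken. U937 is an established human line from a lymphoma of histiocytic type, whose cells resemble immature monocytes. The control cells were cultured at 37 °C and carried no treatment; the labels name no incubation time for them. The other 3 arrays held cells given the microbubble contrast agent Sonazoid at 0.05%, cells exposed for 1 min to ultrasound of 0.3 W/cm2, and cells given both, each then incubated for 3 h. They are other conditions and not replicates of the control, and were used only to see how the position of a gene within an array varied. Total RNA was labelled by amplification from the 3′ end and hybridised to an Affymetrix Human Genome U133 Plus 2.0 array, which measures a gene with 1 or more probe sets.

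Blood cells of the granulocyte and monocyte lineage pass through a stage in which they make serine proteases and store them in azurophil granules, the lysosome-like stores of early myeloid cells. At that stage the transcription factors C/EBP alpha, PU.1, MYB and GFI1 are active. The surface receptors and oxidase subunits of mature phagocytes come later, as the granule genes are switched off. U937 is known for high granule protease expression, for CD4 on its surface, and for the CALM-AF10 fusion of PICALM and MLLT10.

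Each gene took the signal of its brightest probe set, and was placed by its percentile among all 54613 probe sets of the array that are not controls. A gene was called bright at or above the 90th percentile (a signal of 712), moderate from the median (22.5) up to that level, and under the median below it. Of 19775 genes 3496 were bright (17.7%), 8668 were moderate (43.8%) and 7611 were under the median (38.5%), so that 61.5% stood at or above the median. The median gene was at percentile 62.7. The counts of each list below are to be read against these shares, and against 9.62% to 11.8% bright where the probe set of each gene was chosen in another way. Signals are linear intensities as deposited and are not corrected for the length of a transcript or the binding strength of a probe, so a position describes the array and is not a ratio of transcripts between genes. A gene under the median cannot be told from background, because detection calls were not used here. GINM1 (712.1) and NOC4L (713.3) lay just inside the bright class and TNRC18 (711.8) and C4orf46 (711.7) just outside it. LRRC37A8P (22.53) and CCDC50 (22.55) lay just above the median, and LINC00330 (22.53) and LOC101927164 (22.52) just under it.

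With 1 array there is no replicate error and no test was made. As a description of the spread, 92.6% of the bright genes, 80.4% of the moderate genes and 75.4% of those under the median kept their class on all 4 arrays, or 80.6% of all genes. No bright gene fell under the median and no gene under the median became bright on any treated array (0 of 3496 and 0 of 7611). The 3′ to 5′ signal ratio was 1.16 for ACTB and 0.987 for GAPDH on the control array, near those of the treated arrays (1.18 to 1.20 and 0.946 to 1.01). Genes with several probe sets had more chances to be bright: 12.5% of the 9252 genes with 1 probe set were bright, against 27.1% of the 2728 genes with at least 4. Of the 2338 bright genes with several probe sets, 357 had all of them bright and 744 had at least 1 under the median. Of 175 bright genes in the lists below 127 had a gene-specific probe set, which was under the median in 6: ENO1 (1.19), ANPEP (1.59), ITGB1 (4.05), CYBA (5.10), BLVRA (10.5) and EED (13.7). A further 9 of the 175 were not bright on every treated array: SPN, MLLT10, ASXL1, IL10RB, HK2, DLST, FASN, DHCR7 and HMOX1, with lowest percentiles between 87.2 and 89.9.

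**Figure D1:**
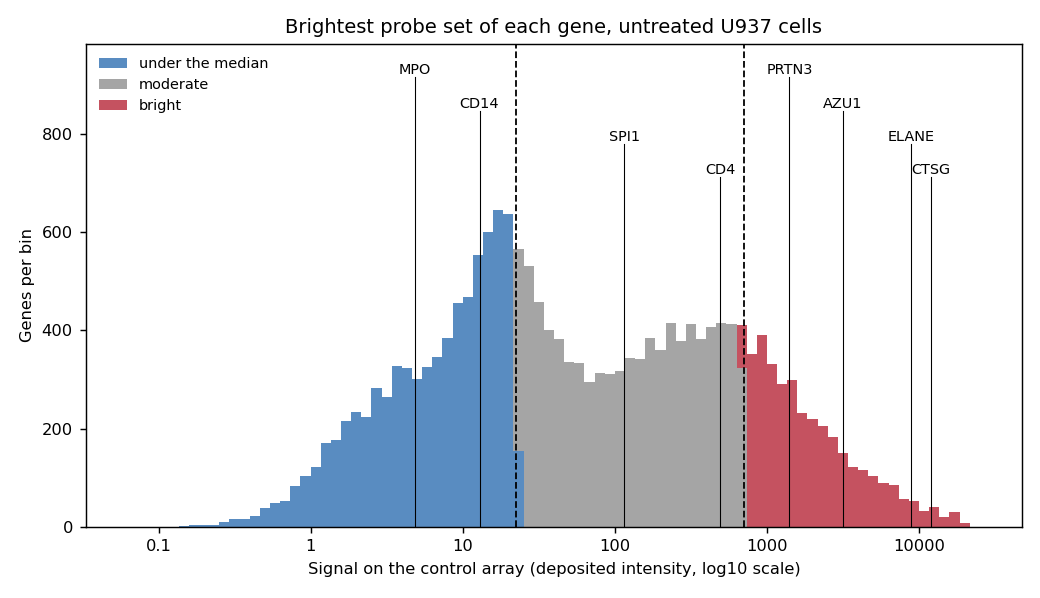
Histogram of the signals of 19775 genes on the control array (x axis, deposited intensity on a log10 scale; y axis, genes per bin), with dashed lines at the median (22.5) and the 90th percentile (712) of all probe sets. Of the genes marked, CTSG, ELANE, AZU1 and PRTN3 lie in the bright class, CD4 and SPI1 in the moderate class, and CD14 and MPO under the median.

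The brightest genes were those of the protein synthesis machinery. Among the 25 highest signals 15 were ribosomal proteins, led by RPL7 (20031), RPS16 (19608) and RPS10 (19598), and EEF1A1, the factor that brings aminoacyl-tRNA to the ribosome, stood at 17113. Of 64 genes with the symbol of a ribosomal protein 54 were bright (84.4%, against 17.7% of all genes), 8 moderate and 2 under the median, with a median signal of 13604. Many of these probe sets may bind related sequences: with gene-specific probe sets alone 14 of 40 were bright, where 11.7% of all genes were. The mitochondrially encoded cytochrome oxidase subunits COX1 (19596) and COX2 (18284) ranked 4 and 8. The others of the 25 were beta-actin (ACTB, 19588), the actin-binding peptide thymosin beta-4 (TMSB4X, 18484), alpha-tubulin (TUBA1B, 18143), the mitochondrial chaperonin HSPD1 (17577), the prolyl isomerase PPIA (17383), the ferritin light chain FTL (17110) and TPT1 (16985). Gene-specific probe sets were under the median for TUBA1B (9.83) and PPIA (5.58), and moderate for HSPD1 (250) and EEF1A1 (546). The 100 brightest genes held 13.0% of the signal summed over all genes.

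Of the label's 6 markers 4 were bright and 2 moderate. These genes were chosen with earlier results of these data known, so their positions are a description. They are not a check of what the cells are. All 6 were at or above the median, as 61.5% of all genes were. CTSG, which encodes the granule protease cathepsin G, had a signal of 12015 on the control array (percentile 99.62). Its percentiles on the treated arrays were 99.57 to 99.64. ELANE, neutrophil elastase, stood at 8869 (percentile 99.4, and 99.2 to 99.5 on the treated arrays). AZU1, azurocidin, a granule protein of the same family that lacks protease activity, stood at 3145 (percentile 97.5, and 97.0 to 98.1). PRTN3, proteinase 3, stood at 1405 (percentile 94.4, and 94.0 to 95.7). These 4 genes were bright on all 4 arrays. SPI1, which encodes the transcription factor PU.1, was moderate at 115 (percentile 72.7), and between percentiles 64.7 and 71.3 on the treated arrays. CD4, a surface glycoprotein of monocytes and helper T cells, was moderate at 493 (percentile 86.9). It rested on 1 of its 2 probe sets, as the other had a signal of 1.02.

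Azurophil granule genes as a list were placed high. Of 13 measured, 10 were bright (76.9%, against 17.7% of all genes), 1 was moderate and 2 were under the median. The median percentile was 98.1, against 62.7 over all genes. The 10 include the 4 bright markers above, so this share is not independent of them. Besides granule contents the list held protease inhibitors and a membrane protein, and it was chosen with earlier results of these data known. SRGN, the proteoglycan serglycin that packs granule proteins, stood at 14075, and the secreted ribonuclease RNASE2 at 8112. The cathepsin inhibitor CST7 stood at 8775, LYZ, the bacteriolytic enzyme lysozyme, at 5354, the elastase inhibitor SERPINB1 at 4179 and MS4A3, a membrane protein of granulocyte-monocyte precursors, at 2664. CFD, complement factor D, was moderate (451). The 2 members under the median were DEFA4, a defensin, at 21.2, and MPO, myeloperoxidase, at 4.84. MPO had a second probe set at 3.60, and its percentile was 22.4 on the control array and reached 54.1 on a treated one. In normal precursors MPO is made at the same stage as the granule proteases. The share of bright members was 76.9% to 80% with other ways of choosing a probe set.

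The 250 bases before the RefSeq start site are shown for the label's granule genes whose promoters were matched, and for CD14, a monocyte gene under the median, so that a reader can set them side by side. AZU1 lies at chr19:827587-827836 and PRTN3 at chr19:840749-840998 on the plus strand, neighbours in a protease gene cluster, CTSG at chr14:24576251-24576500 and CD14 at chr5:140633176-140633425 on the minus strand (GRCh38.p14). Each sequence reads 5′ to 3′ on the strand of its gene and ends at the base before the start. Capitals mark GAGGAA, the core letters bound by PU.1, on either strand (TTCCTC when on the other), and TATAA, searched on the gene strand alone. These letters were picked after the sequences were read.
AZU1: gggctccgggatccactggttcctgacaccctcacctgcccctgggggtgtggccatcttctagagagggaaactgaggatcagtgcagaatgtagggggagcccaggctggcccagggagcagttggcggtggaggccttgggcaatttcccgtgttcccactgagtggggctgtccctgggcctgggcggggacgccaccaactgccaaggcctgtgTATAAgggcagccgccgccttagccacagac
PRTN3: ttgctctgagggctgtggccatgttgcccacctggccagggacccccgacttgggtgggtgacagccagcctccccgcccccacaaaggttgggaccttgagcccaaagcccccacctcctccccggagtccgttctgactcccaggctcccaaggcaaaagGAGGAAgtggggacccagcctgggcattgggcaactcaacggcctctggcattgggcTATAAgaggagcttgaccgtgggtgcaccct
CTSG: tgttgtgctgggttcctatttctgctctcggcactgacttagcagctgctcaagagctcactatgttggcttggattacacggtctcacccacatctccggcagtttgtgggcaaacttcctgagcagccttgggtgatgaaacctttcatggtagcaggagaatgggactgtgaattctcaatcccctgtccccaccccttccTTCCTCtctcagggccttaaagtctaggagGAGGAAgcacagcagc
CD14: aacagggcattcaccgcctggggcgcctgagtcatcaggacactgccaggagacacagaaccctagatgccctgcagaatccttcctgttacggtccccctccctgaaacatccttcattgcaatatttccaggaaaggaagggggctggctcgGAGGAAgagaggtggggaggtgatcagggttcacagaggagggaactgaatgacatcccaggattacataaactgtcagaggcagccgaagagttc
GAGGAA was found in PRTN3, on both strands in CTSG, and in CD14, and is present in 23.4% of 27303 RefSeq promoters of this length. TATAA was found at the same distance from the start in AZU1 and PRTN3 (bases -31 to -27), and is present in 14.3%. The letters TTNNGNAA of C/EBP sites, searched on both strands and overlapping neither of the other matches, were found in AZU1 (-111 to -104), PRTN3 (-62 to -55) and, on the other strand, CD14 (-33 to -26), and are present in 33.6%. CD14, under the median, held the GAGGAA and TTNNGNAA letters too; a match in these windows is a description of the sequence and not a site.

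The list of later neutrophil granule genes also held calcium-binding S100 proteins, which are not granule contents. Of its 14 genes 0 were bright, against 17.7% of all genes, 6 were moderate and 8 were under the median (57.1%, against 38.5%). The calcium-binding proteins S100A9 (186) and S100A8 (103), the gelatinase MMP9 (151), the antimicrobial peptide CAMP (99.9) and the chitinase-like protein CHI3L1 (171) were moderate, S100A8 by 1 of 2 probe sets. The iron-binding proteins LTF (2.13) and LCN2 (5.04), and CEACAM8 (4.56), were under the median. MMP8 was at the median (22.9).

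Of 15 monocyte and macrophage differentiation genes 0 were bright, 8 were moderate and 7 were under the median, with a median percentile of 56.3. The share under the median was 46.7%, against 38.5% of all genes, and none of the list was bright, against 17.7%. The lectin FCN1 (313), the Fc receptor FCGR2A (319, by 1 of 2 probe sets) and the chemokine receptor CX3CR1 (163) were the brightest. CD14, the co-receptor for lipopolysaccharide, stood at 12.9, the scavenger receptors CD163 at 11.9 and MSR1 at 15.3, the mannose receptor MRC1 at 1.38 and the high-affinity Fc receptor FCGR1A at 0.799. ITGAM, the integrin CD11b, was moderate at 70.9 by 1 of 2 probe sets, and CSF1R, which binds the growth factor M-CSF, at 31.4. The percentile of CD14 ran from 3.93 to 38.3 over the 4 arrays and that of FCGR1A from 2.67 to 40.7, so low signals moved widely between arrays. As the arrays were made from bulk RNA, fewer cells of a kind and less RNA per cell cannot be told apart.

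**Figure D2:**
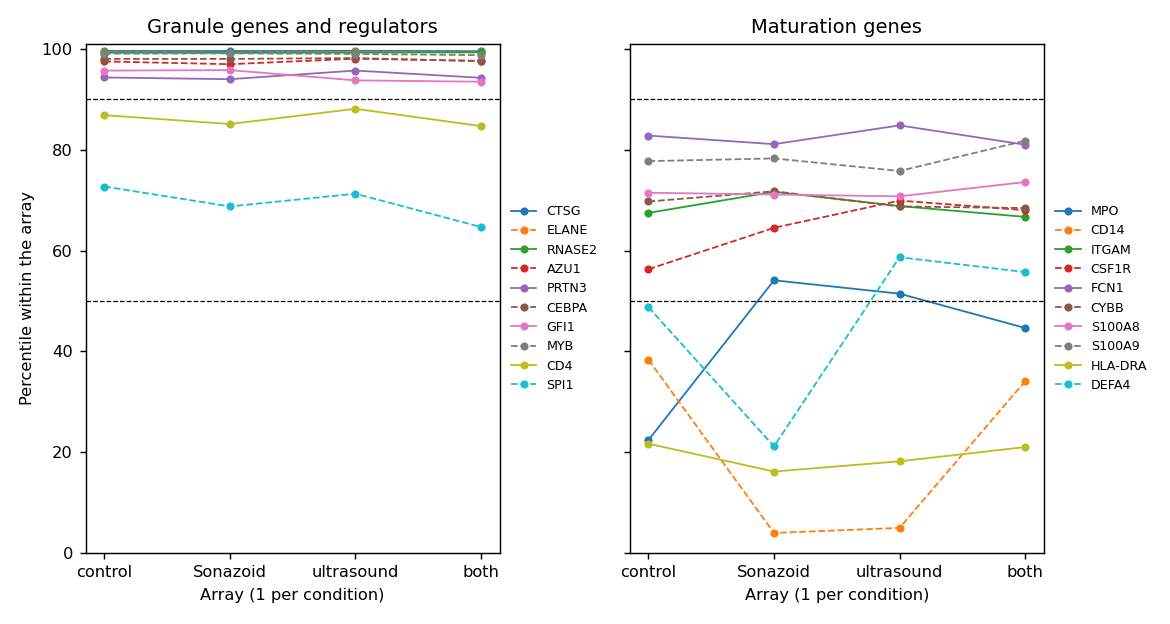
Percentile within each array (y axis) on the control array and the 3 treated arrays (x axis, 1 array per condition). Dashed lines mark the class limits (50 and 90). The left panel holds 10 granule genes and regulators, and its granule genes are bright members of the azurophil list only. The right panel, titled maturation genes, holds 10 genes. Among them MPO and DEFA4 belong to the azurophil list, as its 2 measured members under the median. The 8 genes of the left panel other than CD4 and SPI1 stay above the 90th percentile on the 4 arrays, while in the right panel MPO, CD14 and DEFA4, all with low signals, move across 30 or more percentiles.

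Of 19 leukocyte and progenitor surface genes measured 11 were bright by their brightest probe set (57.9%, against 17.7% of all genes). A further 5 were moderate and 3 were under the median. CD93, a receptor of early myeloid and endothelial cells, stood at 5854, CD47, the "do not eat me" signal, at 5837, and the hyaluronan receptor CD44 at 2483. The integrin chains ITGB1 (3194), ITGB2 (3039) and ITGA4 (1400) were bright, and so were FUT4 (1360), which makes the CD15 sugar, the phosphatase CD45 (PTPRC, 1299), SPN (1283), CD37 (1182) and ANPEP, the peptidase CD13 (857). ITGAL, the alpha chain that pairs with ITGB2 on leukocytes, was moderate at 149. CLEC12A (521) and CD53 (586) were moderate. The stem and progenitor markers CD34 (22.1), KIT (19.8) and CD38 (3.95) were under the median, and FLT3 was low among the moderate genes (44.1). ITGB1 had 4 of 7 probe sets under the median, with its gene-specific one at 4.05. ANPEP had 2 of 3 under it, and SPN was bright by 1 of 5 and at percentile 89.7 on a treated array. The number of bright members was 4 of 19 (21.1%) with the median or the mean probe set of each gene. Of all genes 11.8% and 9.62% were bright by these rules.

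Subunits of the phagocyte NADPH oxidase, the enzyme that makes superoxide, were unevenly placed. The small GTPases RAC1 (7084) and RAC2 (4401), the membrane subunit CYBA (2749) and the cytosolic subunit NCF4 (2037) were bright. CYBB, the catalytic subunit gp91phox, was moderate at 86.7, and NCF1, the cytosolic organiser, at 74.6; NCF1 has near-identical pseudogenes that its probe set may also bind. Both held their class on all 4 arrays, CYBB between percentiles 68.4 and 71.8. CYBA rested on 1 of 2 probe sets, the gene-specific one standing at 5.10.

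Class I antigen presentation genes had a median percentile of 92.3 and class II genes one of 57.2, against 62.7 over all genes. All 10 class I genes measured were at or above the median, as 61.5% of all genes were, and 5 were bright (50%, against 17.7%). The bright ones were B2M, the invariant light chain (16262), HLA-C (9753), HLA-B (8883), the immunoproteasome subunit PSMB8 (2859) and HLA-E (1601). The peptide transporters TAP1 (227) and TAP2 (314) and the class I activator NLRC5 (158) were moderate. Of 9 class II genes 0 were bright, against 17.7% of all genes, and 4 were under the median (44.4%, against 38.5%). Among these 4 was HLA-DRA (4.57), the invariant alpha chain of HLA-DR, while HLA-DRB1 was moderate (55.7) by a probe set that is not gene-specific. The class II master regulator CIITA stood at 33.2 and the invariant chain CD74 at 38.8. The bright HLA probe sets may bind several HLA genes, and none of the 6 class I genes with a gene-specific probe set was bright by it (0 of 6).

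**Figure D3:**
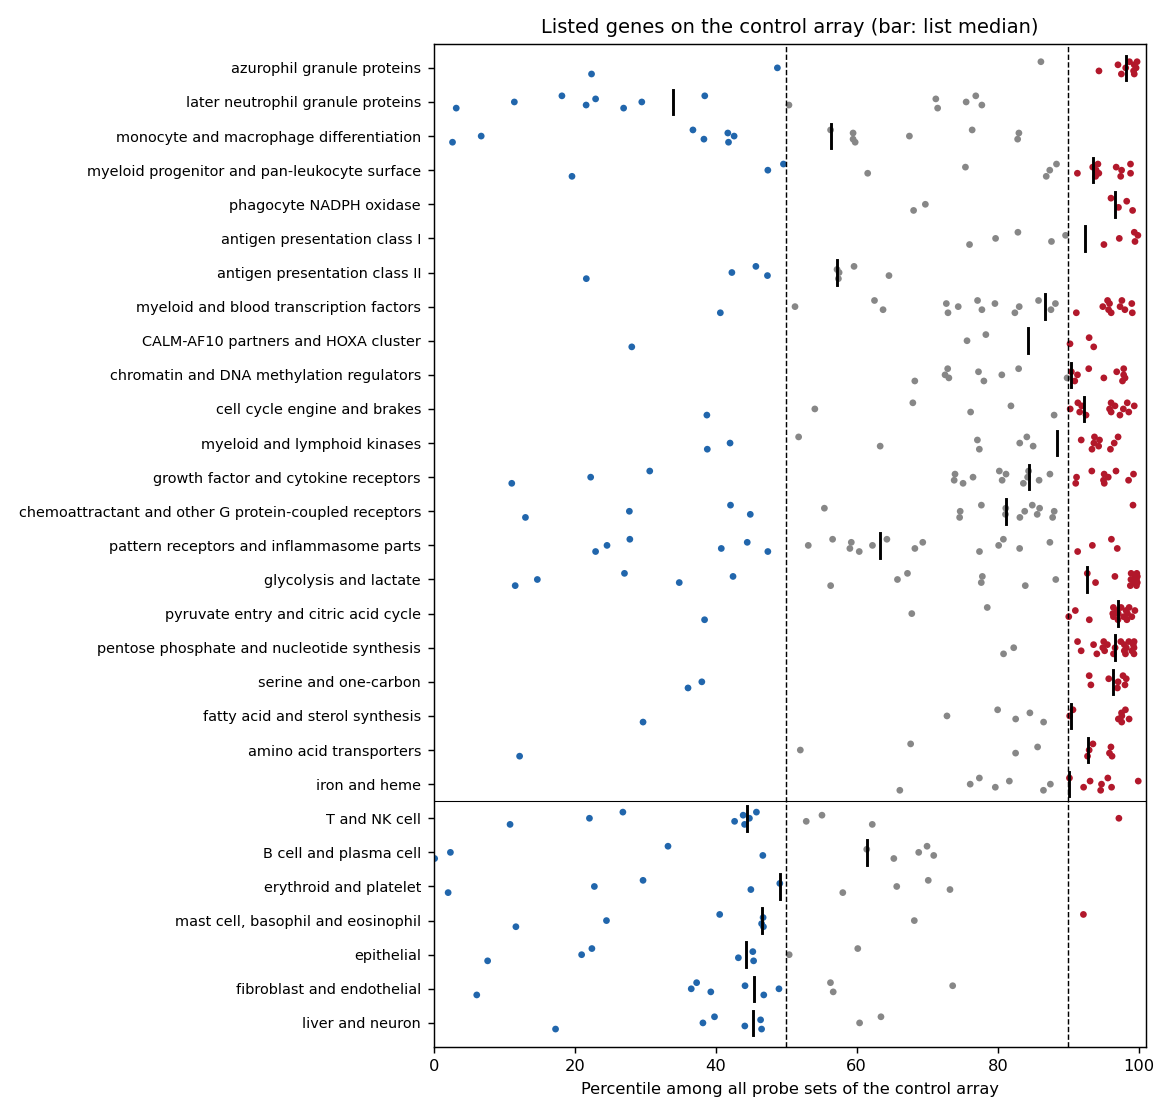
Percentile on the control array (x axis) of every measured gene of 22 lists of lineage, regulator, receptor and metabolic genes (upper part) and 7 lists of other cell types (lower part), with a bar at the median of each list and dashed lines at percentiles 50 and 90. Red points are bright, grey moderate and blue under the median; the medians run from 34.0 for later neutrophil granule genes to 98.1 for azurophil granule genes.

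Of 26 blood transcription factors 11 were bright (42.3%, against 17.7% of all genes), 14 were moderate and 1 was under the median (median percentile 86.7). MYB, which holds blood precursors in an immature, dividing state, stood at 6824, and MYC, a driver of growth, at 6563. CEBPA, which commits precursors to the granulocyte and monocyte line, stood at 3915, CEBPB, a factor of monocyte maturation, at 1932, and GFI1, a repressor needed for granulocytes, at 1869. The RUNX partner CBFB (2948), the helix-loop-helix inhibitor ID2 (3256), IKZF1 (2053), the ETS factor FLI1 (1809), LMO2 (1555) and the monocyte factor IRF8 (840) were also bright. LMO2 was bright by 1 of 2 probe sets, with the other at 54.0. The late granulocyte factor CEBPE was moderate (225), as were the vitamin D receptor VDR (575), through which U937 cells are commonly driven to mature, and the retinoic acid receptor RARA (301). GATA1 (52.5) and GATA2 (47.7), factors of the erythroid and mast cell lines, were low among the moderate genes, TAL1 stood at 23.9, and CEBPD was under the median (14.5). With other ways of choosing a probe set 30.8% to 36.8% of these factors were bright, against 9.62% to 11.8% of all genes.

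For the CALM-AF10 fusion 6 of 14 listed genes were measured. PICALM (1225), MLLT10 (734) and the homeobox cofactor MEIS1 (1087) were bright, and its partner PBX3 (197) and the histone methyltransferase DOT1L (153), which AF10 recruits, were moderate. HOXB4 was under the median (7.25). None of the listed HOXA genes was measured, nor BMI1, so HOXB4 is the only HOX gene of the list placed here. The bright share was 50%, against 17.7% of all genes. With other ways of choosing a probe set 0 to 2 of the 6 were bright, against 9.62% to 11.8% of all genes. MLLT10 was bright by 1 of 8 probe sets, with the next at 178, and was just below the 90th percentile on at least 1 treated array (89.1). Whether a probe set read the fusion or the unrearranged transcript was not tested.

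By their brightest probe set all 19 chromatin regulators were at or above the median, as 61.5% of all genes were. Of these 19, 10 were bright (52.6%, against 17.7% of all genes). The deacetylases HDAC1 (3961) and HDAC2 (3623), the maintenance DNA methyltransferase DNMT1 (3378) and its guide UHRF1 (3609) were the brightest. The core subunits of Polycomb complex 2, SUZ12 (2531), EED (1598) and EZH2 (857), were bright, and EZH1, the alternative catalytic subunit, was moderate (117). EED was bright by 1 of 2 probe sets, with the gene-specific one at 13.7, and EZH2 has no gene-specific probe set. The de novo methyltransferases DNMT3A (249) and DNMT3B (191) and the demethylating enzymes TET3 (318), TET2 (114) and TET1 (75.7) were moderate. With other ways of choosing a probe set 31.6% to 42.1% were bright, against 9.62% to 11.8% of all genes. Between 5.26% and 10.5% were then under the median, against 44.9% to 46.5% of all genes.

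Of 20 cell cycle genes 14 were bright (70%, against 17.7% of all genes), 5 were moderate and 1 was under the median. The replication clamp PCNA stood at 8848, the mitotic pair CDK1 and CCNB1 at 3543 and 4572, and CCNA2 at 2046. Of the G1 engine CDK4 (5083), CDK6 (2927), CCND3 (2348) and CCND2 (1012) were bright, whereas CCND1 was under the median (13.2). Of the brakes CDKN1B (1934), CDKN2A (2053) and RB1 (894) were bright. CDKN1A, the p53-inducible inhibitor p21, was moderate at 73.9, and CDKN2B stood at 27.7. Of the 3 CDKN2A probe sets 1 was bright and the gene-specific one stood at 535, and which of the products of this gene each read was not tested. The number of bright members was 5 of 20 with the mean of the probe sets of each gene and 7 of 20 with their median, where 9.62% and 11.8% of all genes were bright.

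Among 18 kinases and phosphatases of blood cell signalling 9 were bright (50%, against 17.7% of all genes), 7 moderate and 2 under the median. The adaptor-linked phosphatase PTPN11 (2687), CSK, which restrains Src kinases (2274), the leukocyte PI3-kinases PIK3CD (2004) and PIK3CG (1425), SYK (1392), JAK1 (1250), BTK (1230), the Src-family kinase LYN (1158) and the phosphatase PTPN6 (919) were bright. FGR (323), FES (175) and JAK2 (50.8) were moderate. The T-cell kinases LCK (13.2) and ZAP70 (15.5) were under the median. Between 22.2% and 50% of the list were bright with other ways of choosing a probe set, and 3 of 18 (16.7%, against 8.82% of all genes) with the bright limit at the 95th percentile.

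Of 25 growth factor and cytokine receptors 10 were bright (40%, against 17.7% of all genes), 12 moderate and 3 under the median (12%, against 38.5%). The transferrin receptor TFRC, which takes up iron, stood at 8029. TGFBR1 stood at 5032 by 1 of 3 probe sets (next 323). The common gamma chain IL2RG (2456), both chains of the interferon gamma receptor (IFNGR2, 1843, and IFNGR1, 1614), the TNF receptor TNFRSF1A (1620), IL6R (1584) and IL17RA (1155) were bright. The colony-stimulating factor receptors CSF3R (366), CSF2RA (341) and CSF2RB (264) were moderate, and IL3RA, which pairs with CSF2RB to bind interleukin-3, was under the median (2.06). IL1R1 (8.53) and the decoy IL1R2 (4.79) were also under it. IL6ST, the signalling partner of IL6R, was moderate at 145. The bright share of these receptors was 20% to 28% with other ways of choosing a probe set, against 9.62% to 11.8% of all genes.

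Of 18 chemoattractant and other G protein-coupled receptors 1 was bright (5.56%, against 17.7% of all genes), but the list had fewer genes under the median (22.2%, against 38.5%) and a median percentile of 81.1, against 62.7. The bright gene was CXCR4, the receptor for CXCL12, at 7451, with all 3 of its probe sets bright. A further 13 were moderate, among them the receptors for platelet-activating factor (PTAFR, 562), prostaglandin E2 (PTGER2, 547, and PTGER4, 426), leukotriene B4 (LTB4R, 324) and ATP (P2RY2, 263), and the formyl peptide receptor family member FPR2 (394). FPR1, the main formyl peptide receptor of phagocytes (15.6), C5AR1 (17.6), CXCR1 (7.08) and S1PR1 (2.41) were under the median. FPR1 and C5AR1 reached percentiles 62.7 and 61.3 on a treated array.

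Of 24 pattern receptors and inflammasome parts 4 were bright (16.7%, near the 17.7% of all genes), 14 moderate and 6 under the median (25%, against 38.5%). The median percentile was 63.3, against 62.7 over all genes. The bright members were the inflammasome adaptor PYCARD (2586), the Toll-like receptor adaptor MYD88 (2071), STING1 (1169) and the protease CASP1 (861). Of 9 Toll-like receptors 0 were bright; TLR4 (254), TLR2 (84.0) and TLR5 (37.2) were moderate, and TLR1 (19.8), TLR6 (17.3), TLR8 (14.6), TLR9 (7.12), TLR7 (5.65) and TLR3 (5.04) were under the median. LY96, the partner of TLR4 for lipopolysaccharide, stood at 46.6. The sensors NLRP3 (237), IFIH1 (323) and CGAS (54.5) were moderate, and so were the adaptors MAVS (522) and TICAM1 (37.6).

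Of 118 metabolic genes 81 were bright (68.6%, against 17.7% of all genes) and 10 were under the median (8.47%, against 38.5%). Among the regulators 52.8% were bright. With gene-specific probe sets alone 39 of 86 metabolic genes (45.3%) and 31 of 68 regulators (45.6%) were bright, where 11.7% of all genes were. Of the 7 glycolytic reactions with several forms of the enzyme in the list, each had at least 1 form in the bright class and at least 1 outside it. In glycolysis 13 of 25 were bright (52%, against 17.7% of all genes), led by ENO1 (14722), GAPDH (14522), PGK1 (13270), LDHA (12722), LDHB (12652) and ALDOA (10470). PGAM1 (8258), PKM (5771), PFKP (2341), HK1 (1281) and HK2 (1040) were bright, while the muscle, brain, liver or testis forms PGAM2 (2.74), ENO2 (15.8), PKLR (6.75), LDHC (69.2) and PFKM (31.4) were moderate or under the median. HK3, a hexokinase of mature myeloid cells, was under the median (10.8). The glucose transporters SLC2A1 (353) and SLC2A3 (184) were moderate and the insulin-regulated SLC2A4 was under the median (2.15). ENO1 was bright by 2 of 4 probe sets, with its gene-specific one at 1.19. GAPDH, PGAM1, LDHA, LDHB, ALDOA and GPI have no gene-specific probe set. The bright share of the list was 35.7% to 48% with other ways of choosing a probe set, against 9.62% to 11.8% of all genes.

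**Figure D4:**
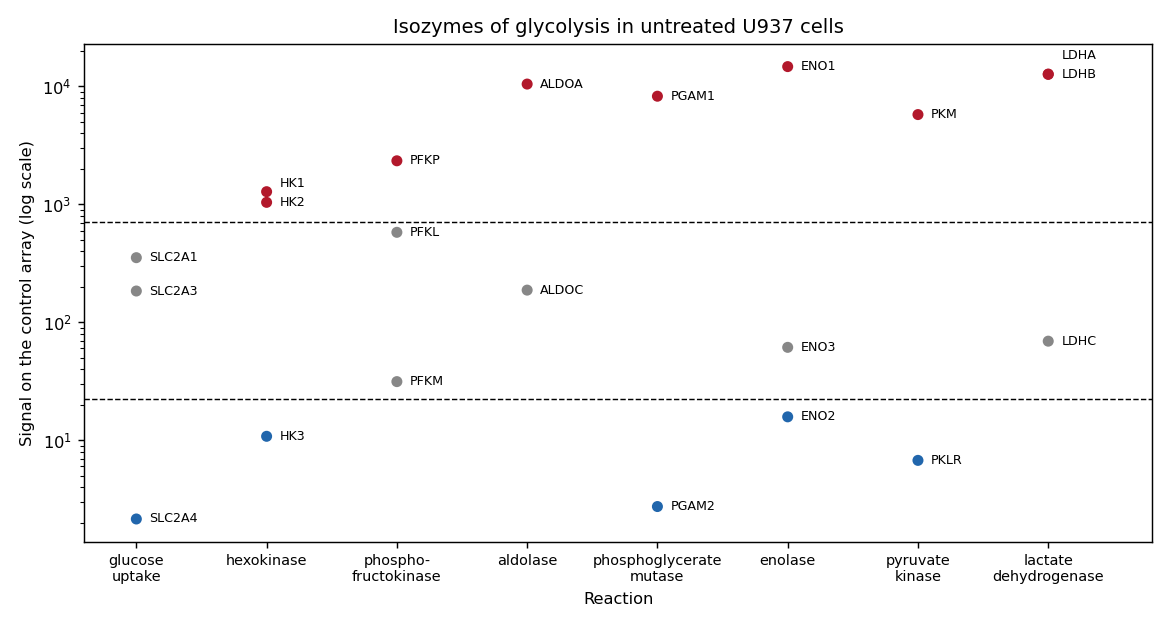
Signals on the control array (y axis, log scale) of the forms of each glycolytic step (x axis), with dashed lines at the median (22.5) and the 90th percentile (712); red points are bright, grey moderate and blue under the median. The points of LDHA (12722) and LDHB (12652) overlap; the lowest form of a step lies under the median for glucose uptake, hexokinase, phosphoglycerate mutase, enolase and pyruvate kinase.

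In pyruvate entry and the citric acid cycle 17 of 20 genes were bright (85%, against 17.7% of all genes), 2 moderate and 1 under the median. MDH2 (9631), MDH1 (6577), IDH1 (5213), the pyruvate dehydrogenase subunits PDHA1 (4645) and PDHB (3581), DLD (4250) and citrate synthase CS (3101) were among the bright. OGDH, the first subunit of the 2-oxoglutarate dehydrogenase complex, was moderate (201), while the other subunits DLST (719) and DLD were bright. Pyruvate carboxylase PC was moderate (72.9) and the testis form PDHA2 under the median (12.9). Other ways of choosing a probe set left 60% to 80% bright, against 9.62% to 11.8% of all genes.

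Pentose phosphate and nucleotide synthesis had 21 of 23 genes bright (91.3%, against 17.7% of all genes) and 0 under the median. TALDO1 (8665) and TKT (8510) of the non-oxidative pentose pathway, TYMS (8560), which makes thymidylate, and RRM2 (7766) and RRM1 (4310), the subunits of ribonucleotide reductase, were the highest with IMPDH2 (6580) and PAICS (5115). Of the guanine pathway isozymes IMPDH2 was bright and IMPDH1 moderate (255). DHODH, the mitochondrial step of pyrimidine synthesis, was also moderate (296). With other ways of choosing a probe set 56.5% to 63.2% of the list were bright, against 9.62% to 11.8% of all genes.

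Of 10 serine and one-carbon genes 8 were bright (80%, against 17.7% of all genes), 0 moderate and 2 under the median (20%, against 38.5%). The bright ones were the serine synthesis enzymes PHGDH (2610), PSAT1 (3459) and PSPH (1134), the mitochondrial folate enzymes SHMT2 (4296) and MTHFD2 (3946), cytosolic MTHFD1 (2690), the transporter SLC1A4 (1882) and methionine synthase MTR (1088). SHMT1, the cytosolic counterpart of SHMT2, was under the median (11.5), and so was mitochondrial MTHFD1L (12.7). SHMT1 reached percentile 55.2 on a treated array; MTHFD1L stayed under the median on all 4 (percentiles 37.1 to 42.0). The bright share of the list was 40% to 60% with other ways of choosing a probe set, against 9.62% to 11.8% of all genes.

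Of 14 fatty acid and sterol synthesis genes 8 were bright, 5 moderate and 1 under the median. FDPS (5213), the desaturase SCD (4100), ACLY (3241), the sterol sensor partner INSIG1 (3214), IDI1 (3180) and SQLE (2729) were the highest. The regulators SREBF2 (304) and SREBF1 (234) were moderate and the elongase ELOVL6 was under the median (8.03). Amino acid transporters had 6 of 11 bright, with SLC7A5 (2114) and its heavy chain SLC3A2 (1088), SLC38A1 (2033), SLC7A1 (1925) and SLC1A5 (1044), the cystine carrier SLC7A11 moderate (304) and the glycine carrier SLC6A9 under the median (2.26). Iron and heme genes had 8 of 15 bright and 0 under the median, with FTL at 17110, the first heme enzyme ALAS1 at 1818, UROD at 2080 and the heme oxygenases HMOX2 (960) and HMOX1 (728). The bright shares were 57.1% of the fatty acid and sterol list, 54.5% of the transporters and 53.3% of the iron and heme list, against 17.7% of all genes. With other ways of choosing a probe set, bright members made up 30% to 42.9% of the fatty acid and sterol list, 33.3% to 36.4% of the transporters and 30.8% to 40% of the iron and heme list. Of all genes 9.62% to 11.8% were bright by these rules. HMOX1 lay just above the bright limit and was between percentiles 89.0 and 96.8 over the 4 arrays.

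Of 64 markers of other cell types measured in 7 lists 2 were bright (3.13%), 20 were moderate and 42 were under the median (65.6%, against 38.5% of all genes). The bright ones were NKG7, a granule membrane protein of NK and T cells, at 2803, and TPSAB1, a mast cell tryptase with near-identical neighbours, at 957. NKG7 rested on 1 gene-specific probe set and was between percentiles 97.1 and 97.5 on the 4 arrays, and the other T and NK markers were moderate (NCAM1 at 46.4, CD5 at 29.3, and CD7) or under the median, with CD3D at 17.0, CD3E at 17.5 and GNLY at 4.74. None of the TPSAB1 probe sets is gene-specific, and the mast cell carboxypeptidase CPA3 stood at 2.17. Of 9 B cell and plasma cell markers 0 were bright, against 17.7% of all genes, 5 were moderate and 44.4% were under the median. Their median percentile was 61.4, against 62.7 over all genes and 56.3 for the monocyte differentiation list. With other ways of choosing a probe set 50% to 77.8% of them were under the median, against 44.9% to 46.5% of all genes. Among the B cell markers PAX5 (97.1) and CD79A (88.8) were the highest and MS4A1 stood at 9.91. EPOR (121), KLF1 (90.1) and HBB (60.9) were the highest of the erythroid and platelet list, COL1A1 (126) of the fibroblast and endothelial list, MUC1 (40.0) of the epithelial list, and TTR (51.2) of the liver and neuron list.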

How the data were processed

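Gene expression was measured in 4 samples of U937 cells, 1 array per treatment group, taken from the treatment label. The authors deposited 1 linear intensity for each probe set; no source used here states how it was summarised or scaled. RNA, per the labels' protocols, was treated with DNase and amplified in 1 cycle from the 3′ end. Each array is 1 sample, so precision is limited by their number, and no test was made. Of 54675 probe sets, 62 were array controls, 41091 others had 1 gene symbol, 1801 had several and 11721 had none; those with several or none named no gene but counted in the percentiles. Symbols of 41037 were updated through Entrez identifiers with RefSeq (assembly GRCh38.p14). Values were neither scaled nor floored, since positions were taken within an array. Promoters of 15383 of the 19775 genes were matched by symbol.

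Of 470 genes in 29 lists, 424 were measured. Members and lists were chosen with earlier results of these data known. Genes named were the label's 6 markers, the 25 brightest genes, the nearest to each class limit, and list members. Gene-specific probe sets are those without s, x or a before the final at of their name. Promoters were searched for TATAA in place of the planned TATAAA. The code for classing was run on simulated data in which the brightest probe set of each gene held its true level without noise. That run could not test how well a real probe set reads its gene. Python 3.11.15, numpy 2.4.6, pandas 2.3.3 and matplotlib 3.10.9 were used.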

Additional observations from a re-analysis of the deposited data

How the results depend on the processing

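No paired analysis was possible because each group has 1 array and no test was made. The 3496 bright genes became 1903 with the geometric mean of a gene's probe sets, 1972 of 16788 with gene-specific probe sets, 1978 with limits taken over genes and 1745 with the upper limit at the 95th percentile; they numbered 2332 with the median probe set and 3495 to 3511 on the treated arrays. Genes at or above the median numbered 9888 to 12332 of 19775 under the alternatives over all genes, against 12164. With gene-specific probe sets they numbered 9243 of 16788 (55.1%, against 61.5%). Limits over genes set the bright share to 10% and the share at or above the median to 50% in advance. Each treated array was classed by its own limits, so its counts over all genes were also largely set beforehand. The 6 markers stayed at or above the median under each alternative but the geometric mean, which left 5 of 6 (CD4 fell under it), and gene-specific probe sets, with which 5 were measured and all 5 stayed. Over the 29 lists, the count of bright members moved by more than 1.5 times for 15 lists with gene-specific probe sets, which also measure fewer genes, 11 with the geometric mean, 4 with the median probe set, 9 with limits over genes, 10 with the upper limit at the 95th percentile, and 0, 1 and 0 on the Sonazoid, ultrasound and combination arrays. Counts of members at or above the median moved so for 13 lists with gene-specific probe sets, 7 with the geometric mean and 5 with the median probe set. They moved for 6 lists with limits over genes, 5 with the lower limit at the 60th percentile, and 0, 1 and 1 on the treated arrays in the same order. With either of these limits 1 of 9 class II genes remained, against 5, and 4 of 15 differentiation genes, against 8. The later granule, differentiation and class II lists had 0 bright members with each way of choosing a probe set. A comparison of promoter sequence between the classes, planned with gene-specific probe sets as an alternative, was void and not made, since 71.8% of the genes under the median had a promoter sequence and 80% were required. Signals under the median moved across wide percentile ranges between arrays, so genes there have no order.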

Other observations

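Long noncoding RNAs were rarely bright. Of 2658 genes annotated as lncRNA in RefSeq 22 were bright (0.828%) and 73.7% were under the median, against 21.0% and 31.9% of 16521 protein-coding genes. The brightest, chosen by signal after the values were seen, were ZFAS1, a snoRNA host transcript (5162), NORAD, which binds Pumilio proteins (3538), LINC00926 (3271), SNHG32 (3224), CRNDE (2467), OIP5-AS1 (1708) and FGD5-AS1 (1670). DLEU1 (1659) and DLEU2 (1133), neighbouring transcripts of a region often deleted in leukemia, were also bright. Antisense transcripts and snoRNA hosts can overlap coding genes, and which transcript a probe set read was not tested.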
